A study of Mus musculus with 8 samples.

Results

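FBP2 encodes the muscle form of fructose-bisphosphatase. It is the muscle enzyme of glycogen synthesis from lactate, and it was chosen by its scores in the comparisons below, among them the highest score of any gene in MBC24 over MBN24, so all of its values below are descriptions and none carries a test. Its members are the spots of the array that list FBP2 as their only gene. There were 2 of them, neighbours in the spot order, among 6610 spots that list 1 gene and 9984 spots in all, and they form 1 of 2922 genes.

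The cells were C2C12, a mouse myoblast line grown in DMEM with glutamine and fetal bovine serum. They were kept for 14 h (MBC14) or 24 h (MBC24) in medium taken from the human pancreatic cancer line CAPAN-1, called conditioned medium below, or in control medium for 14 h (MBN14), 24 h (MBN24) or 0 h (MBN0). Spotted 2-colour arrays of muscle genes set MBC14 over MBN14 and MBC24 over MBN24, at matched hours, and both conditioned RNAs over MBN0. Each of these 4 comparisons had an array on which Cy5 marked the conditioned RNA (array A) and one with the dyes exchanged (array B). Arrays A and B carry the same pair of RNAs and count as 1 replicate, so an SD over them is technical. All RNA came from this 1 line, and the labels name no further cultures.

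Fructose-bisphosphatase removes a phosphate from fructose 1,6-bisphosphate to give fructose 6-phosphate. This is the step at which gluconeogenesis bypasses phosphofructokinase. The liver form, FBP1, serves the release of glucose. The muscle form, FBP2, serves the rebuilding of glycogen from lactate and other carbon precursors, is inhibited by AMP and calcium, and binds aldolase on alpha-actinin at the Z-line. The array names human genes, so an FBP2 spot can bind the mouse counterpart Fbp2 or a related transcript. In the mouse annotation Fbp2 and Fbp1 lie next to each other among the protein-coding genes. FBP1 was not analysed here, because no spot lists it alone. The arrays give ratios only, so neither the level of FBP2 in these cells nor the presence of myoblast markers such as MYOD1 and DES could be checked.

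The deposited values are signed scores of unstated scale and direction, so values are in score units and no fold change can be stated. As deposited, arrays A and B of a pair correlated below 0 across genes in all 4 comparisons, between -0.32 and -0.13. They were therefore taken as Cy5 over Cy3, and the sign of array B was turned so that a positive score stands for more signal in conditioned medium. In the other reading, conditioned over control, array B stays as deposited. Dye effects that differ between genes would give correlations below 0 in that reading as well. The correlations thus cannot decide between the readings, and dye effects were not tested. Wherever arrays A and B have the same sign below, this depends on the reading. The labels do not settle which reading holds, and the labelling text of array B in MBC14 over MBN0 contradicts its dye field. Under either reading the direction itself is likely, not certain, and every sign would turn if the scores were control over conditioned. The RNA is that of whole cultures, in which fewer cells with a transcript and less of it per cell cannot be told apart. Values below follow the Cy5-over-Cy3 reading, centred on the array median, unless the other is named.

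At 24 h in conditioned over control medium, FBP2 had scores of 4.27 and 2.89 on its spots on array A and 5.12 and 5.88 on array B. All 4 values lay above 0. The mean was 4.54 ± 1.36 (SD over n = 2 arrays, as is every ± that follows a score), the highest of 2922 genes, with a rank from the top of 7 on array A and 6 on array B. FBP2 passed the size rule, a mean of at least 1 with at least 0.5 on each array in that direction, as did 7.94% of all genes in the higher direction. In the conditioned-over-control reading the arrays pulled apart, 3.58 on array A and -5.50 on array B, with a mean of -0.96 ± 6.42.

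At 14 h in conditioned over control medium, the FBP2 spots had 2.15 and 4.89 on array A and 1.14 and 1.12 on array B. Again all 4 values were above 0, but array A lay well above array B. The mean was 2.33 ± 1.69, with a rank of 53 from the top. Array A alone gave 3.52 and array B alone 1.13, so the size of the 14 h value rests on array A. FBP2 passed the size rule in the higher direction, as did 9.1% of all genes. The conditioned-over-control reading gave 1.20 ± 3.29.

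Against control medium at 0 h the signs were the other way round. In MBC24 over MBN0 the spots had -1.38 and -1.46 on array A and -2.55 and -1.68 on array B, a mean of -1.77 ± 0.49. In MBC14 over MBN0 they had -1.26 and -0.25 on array A and -1.54 and -0.98 on array B, a mean of -1.01 ± 0.36. All 8 values lay below 0, and those of 24 h were lower on average than those of 14 h, on both arrays. Both comparisons share MBN0. FBP2 passed the size rule in the lower direction in both, as did 10.9% of all genes at 24 h and 8.38% at 14 h. Read as conditioned over control, the means were 0.35 ± 2.50 at 24 h and 0.25 ± 1.42 at 14 h. If the labelling text of array B in MBC14 over MBN0 holds rather than its dye field, that array is not turned. FBP2 then has 1.26 there and the same mean of 0.25, and does not pass the size rule in that comparison.

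**Figure D1:**
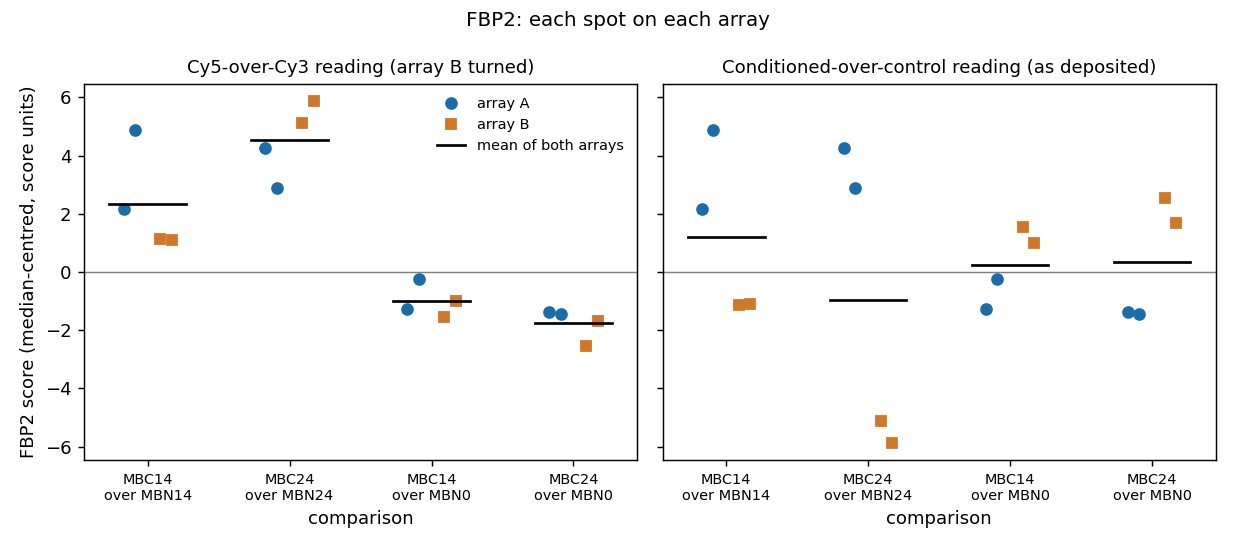
FBP2 scores (vertical axis, median-centred score units) on each of its 2 spots and 8 arrays, by comparison, with array A as circles, array B as squares and the mean of both arrays as a bar. In the left panel, with array B turned, all values lie above 0 in the matched-hour comparisons (means 2.33 and 4.54) and below 0 against MBN0 (means -1.01 and -1.77). In the right panel, as deposited, arrays A and B lie on opposite sides of 0 in each comparison.

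Arrays A and B thus had opposite deposited signs for FBP2 in all 4 pairs, which 13.1% of the 2922 genes did. A score above 0 on the 4 matched-hour arrays together with a score below 0 on the 4 arrays against MBN0 was found in 34 genes, FBP2 among them, or 1.16% of all. The opposite arrangement was found in 50 genes (1.71%). Because FBP2 was chosen with these values known, nothing is read from its place among them.

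The spots of FBP2 lay 2.74 score units apart on array A of MBC14 over MBN14, a larger gap than in 92.9% of 3305 spot pairs of one gene. The gap was 0.03 on array B of that comparison and 0.08 on array A of MBC24 over MBN0. On the other 5 arrays it lay between 0.56 and 1.38, while the median gap of all pairs was 0.50 to 0.98 over the 8 arrays. Both arrays of MBC24 over MBN24 had gaps above their own median, 1.38 against 0.81 on array A and 0.76 against 0.50 on array B. These gaps were larger than in 71.7% of pairs on array A and 65.3% on array B. Relative to other pairs, the spots lay furthest apart on the array that gave the large 14 h value.

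The chain of comparisons allows each RNA to be set against MBN0, directly for conditioned medium and by subtraction within an array letter for control medium. MBC14 stood at -1.01 and MBC24 at -1.77, as above. MBN14 stood at -4.28 on array A and -2.39 on array B, a mean of -3.33 ± 1.33. MBN24 stood at -5.00 on array A and -7.62 on array B, a mean of -6.31 ± 1.85, the lowest of the 2922 genes. On both arrays the order from high to low was MBN0, MBC14, MBC24, MBN14 and MBN24. The places of MBC14 and MBN14 on array B rest on the dye field of MBC14 over MBN0, which its labelling text contradicts. MBC24 and MBN14 were neighbours in this order that differed by only 0.27 on array B, and MBC14 and MBC24 differed by 0.67 on array A and 0.86 on array B.

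In these terms FBP2 scored below its 0 h level in all of the later RNAs, and further below it in control than in conditioned medium at each hour. The derived values of control medium contain the matched-hour scores by construction, so they add no separate evidence on the difference between the media. Differences of scores of unknown scale are only roughly additive. The step between 14 and 24 h in control medium rested on array B, with -5.23 there and -0.73 on array A. The matched-hour score was likewise 4.37 higher at 24 than at 14 h on array B and 0.06 higher on array A. In the conditioned-over-control reading MBC14 stood at 0.25, MBN14 at -0.94, MBC24 at 0.35 and MBN24 at 1.31, each with an SD larger than its size, and the order was lost.

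**Figure D2:**
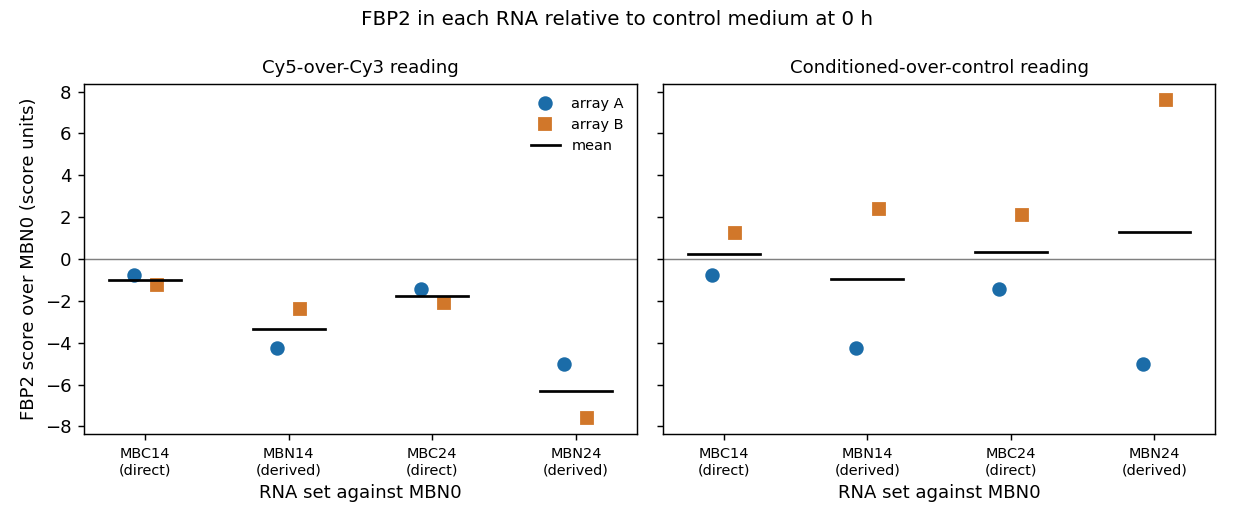
FBP2 score relative to control medium at 0 h (vertical axis, score units) for MBC14, MBN14, MBC24 and MBN24, with array A as circles, array B as squares and bars for the means. In the Cy5-over-Cy3 reading all points lie below 0 and MBN24 is lowest (-6.31), and in the conditioned-over-control reading the arrays lie on opposite sides of 0.

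The spots around FBP2 in the spot order were examined next. On array B of MBC24 over MBN24, each of the 12 nearest spots, 6 on either side, was above 0 like FBP2. They ranged from 1.71 to 6.57 with a median of 2.58, a higher median than around 98.9% of the 4986 spot pairs of the array. The FBP2 mean there, 5.50, lay 2.92 above it. On array A of the same comparison 9 of the 12 were above 0, with a median of 1.66, and FBP2 lay 1.92 above it. The 4 spots that lie 8 places away had medians of -1.19 on array B and -0.13 on array A, so these were not high.

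The immediate neighbours in this stretch were genes of other functions. GPC1, a cell surface heparan sulfate proteoglycan, stood beside FBP2 with 1.63 on array A and 6.27 on array B at 24 h. Next to it, ROMO1, a mitochondrial membrane protein, had 2.35 and 3.41, and the ATP synthase subunit ATP5PF had 3.16 and 2.32. On the other side MAPKAPK3, a stress-activated protein kinase, had 0.05 and 3.40, and the proteasome ATPase PSMC3 had 2.13 and 1.86. These genes were named after their values were seen. GPC1, ROMO1 and ATP5PF passed the limma test described below (adjusted p = 0.00199, 0.00534 and 0.0342). MAPKAPK3 and PSMC3 did not pass it (limma, adjusted p = 0.438 and 0.1). Centring on 11 neighbouring spots subtracts the median of a window that includes the spot itself. With each spot centred in this way none of GPC1, ROMO1 and ATP5PF passed (limma, adjusted p = 0.216, 0.284 and 0.634). Their means over both hours were then 1.91, 1.56 and 0.39. Nor did they pass with array B as deposited (limma, adjusted p = 0.995, 0.995 and 0.998) or without the A arrays (limma, adjusted p = 0.308, 0.308 and 0.319).

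At 14 h the neighbours were high as well. On array A of MBC14 over MBN14 they reached 8.15 with a median of 0.97, and 11 of 12 shared the sign of FBP2. On array B their median was 1.75, above the FBP2 mean of 1.13. Against MBN0 the medians lay between -0.73 and 0.07 over the 4 arrays. In MBC14 over MBN0, 12.5% of windows of the same size had a lower median on array A and 20.4% on array B, and in MBC24 over MBN0 54.0% and 25.4%. On array A of MBC14 over MBN0 the median of -0.73 was next to the -0.75 of FBP2, and 9 of 12 neighbours shared its sign.

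Centring each spot on its neighbours changed the size of the scores and the sign of no mean over both arrays. Array B of MBC14 over MBN14 did turn, to -0.015 with 11 neighbouring spots and to -0.62 with the 12 nearest, against 1.37 and 2.55 on array A. The window of 11 neighbouring spots includes both FBP2 spots, so their own scores enter the median, whereas the 12 nearest leave them out. With the median of 11 neighbouring spots subtracted, FBP2 had 1.77 ± 0.04 at 24 h matched, 0.68 ± 0.98 at 14 h matched, -1.30 ± 0.40 in MBC24 over MBN0 and -0.085 ± 0.11 in MBC14 over MBN0. With the median of the 12 nearest spots subtracted, chosen after seeing the data, these were 2.42 ± 0.71, 0.97 ± 2.24, -1.60 ± 0.16 and -0.38 ± 0.50. The 24 h values kept a mean beyond 1 in all of these, whereas both 14 h values lay within 1 of 0.

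**Figure D3:**
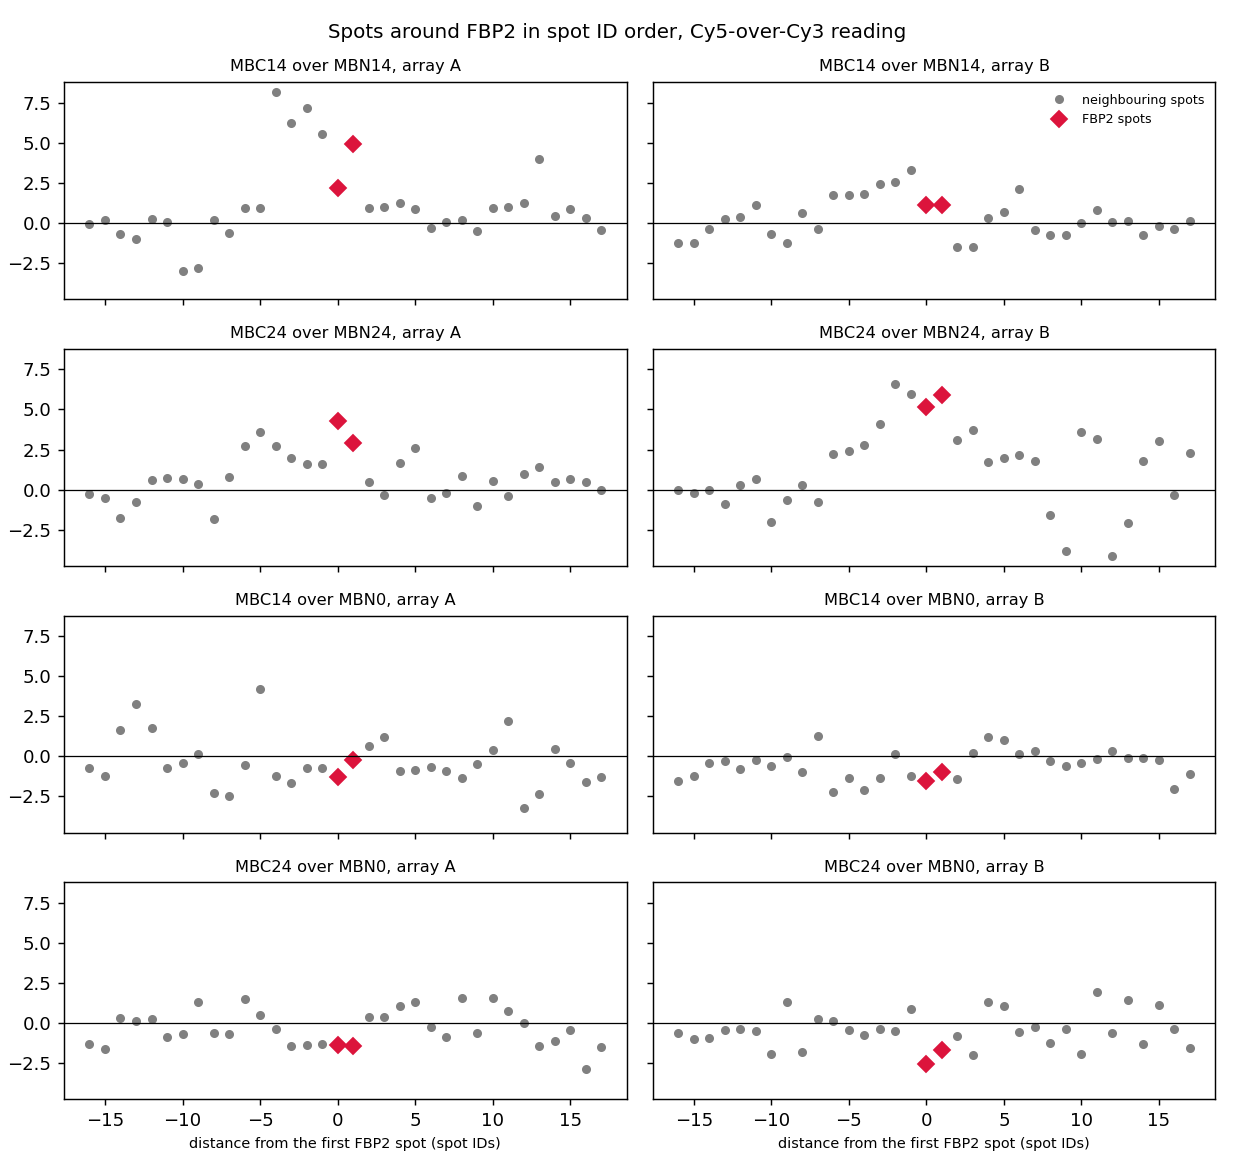
Scores in the Cy5-over-Cy3 reading (vertical axis, units) of the spots around FBP2 against distance from its first spot in spot IDs, 1 panel per array, with FBP2 as red diamonds and other spots in grey. On the matched-hour arrays FBP2 sits in or beside a run of high spots (medians of the 12 nearest 0.97 to 2.58), and on the MBN0 arrays the medians run from -0.73 to 0.07.

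The other genes of the route from lactate to glycogen were taken from a list of 67 genes, of which 34 had named spots, 33 besides FBP2. They were tested for a shift common to both matched hours with limma on 2 values per gene, the array means at 14 h and at 24 h. Of the 33, 0 rose and 0 fell at an adjusted p under 0.05, against 3.08% of all genes that rose and 2.12% that fell, and 7 of 33 had an unadjusted p under 0.05 against 22.8% of all genes. In the conditioned-over-control reading 0 of 33 passed and 0 had an unadjusted p under 0.05 in limma. By the size rule 4 were higher at 14 h, 12.1% of the list against 9.1% of all genes, and 2 were lower, 6.06% against 10.8%. At 24 h 2 were higher, 6.06% against 7.94%, and 1 was lower, 3.03% against 9.69%. The median score over the list was 0.21 at 14 h and 0.11 at 24 h, against -0.04 and -0.11 over all genes.

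The phosphofructokinases make the product that fructose-bisphosphatase removes. The muscle form PFKM had 0.84 ± 0.75 at 14 h and 0.29 ± 1.24 at 24 h. PFKL, the liver form, had -0.39 ± 1.07 and -0.28 ± 0.02, and the platelet form PFKP -0.49 ± 0.25 and -0.10 ± 0.40. Among the bifunctional enzymes that set the level of fructose 2,6-bisphosphate, an inhibitor of fructose-bisphosphatase, PFKFB1 had 0.39 ± 0.92 and 0.57 ± 0.39. PFKFB4 had -0.11 ± 0.28 at 14 h and -2.42 ± 2.68 at 24 h, where it passed the size rule with -0.52 on array A and -4.32 on array B. None of these 5 reached the FBP2 mean in the higher direction at either hour. On array B at 14 h alone, PFKM had 1.37 and FBP2 1.13. Because FBP2 was chosen by these scores, nothing is read from this.

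Lactate enters the route through lactate dehydrogenase. LDHA, the chain that favours lactate production, had 1.55 ± 1.21 at 24 h, past the size rule, and -0.30 ± 0.79 at 14 h. Against MBN0 it scored -1.51 ± 1.38 in MBC14, past the size rule, and -0.25 ± 1.36 in MBC24. Its 4 means thus had the signs of FBP2 except at 14 h matched. LDHB, the heart chain, had 0.74 ± 1.10 at 24 h and -0.77 ± 1.52 at 14 h. PC, pyruvate carboxylase, which opens gluconeogenesis, had -0.01 on array A and 2.86 on array B at 24 h, so its arrays did not agree.

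Among the reversible steps the aldolases stand next to fructose-bisphosphatase. ALDOA, the muscle aldolase and binding partner of FBP2, was measured on 8 spots and had 1.31 ± 0.80 at 24 h, past the size rule, and 0.67 ± 0.68 at 14 h. ALDOC had 0.94 ± 0.55 at 24 h and 1.07 ± 0.74 at 14 h, past the size rule at 14 h. Both lay above 0 on all 4 matched-hour arrays, as did PGK1, MDH2 and the hexokinase HK1 of the list. Neither aldolase passed limma (adjusted p = 0.176 for ALDOA and 0.16 for ALDOC). Against MBN0, where FBP2 lay below 0, ALDOA had 0.63 ± 0.35 at 24 h and 0.53 ± 0.41 at 14 h. PGK1, phosphoglycerate kinase, passed the size rule at 14 h with 1.98 ± 1.56.

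Toward glycogen, GYS1, the muscle glycogen synthase, had 1.25 ± 0.03 at 14 h, past the size rule, and -0.01 ± 0.38 at 24 h. It was also past the rule in MBC14 over MBN0, with 2.86 on array A and 0.72 on array B. GSK3A, a kinase that inactivates glycogen synthase, had -1.36 ± 1.14 at 14 h, past the size rule, and at 24 h a mean of -0.98 from -1.69 on array A and -0.28 on array B. G6PC3, a widely expressed glucose-6-phosphatase, had 1.37 ± 0.80 at 14 h, past the size rule, and -0.19 ± 1.23 at 24 h. The alpha-actinins, the Z-line anchor of FBP2, lay at or below 0 at 14 h, with -1.51 ± 0.53 for ACTN3, past the size rule, and -0.47 ± 0.29 for ACTN2. At 24 h ACTN3 had 0.09 ± 0.66 and ACTN2 -0.32 ± 0.21.

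**Figure D4:**
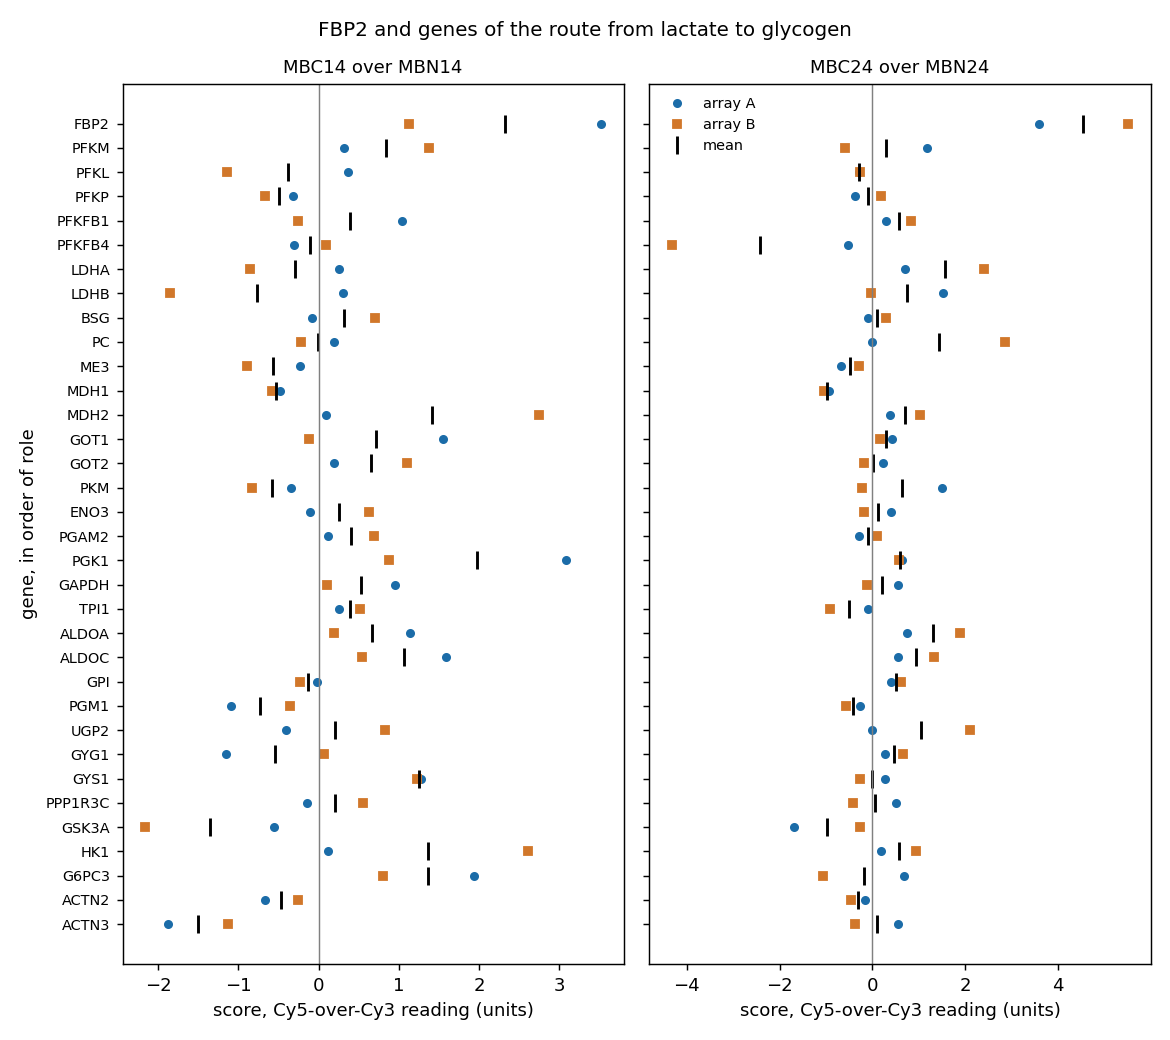
Scores in the Cy5-over-Cy3 reading (horizontal axis, units) of FBP2 and the 33 other measured genes of the list, in order of role, at 14 h (left) and 24 h (right), with array A as circles, array B as squares and a tick for the mean. FBP2, which was chosen by these scores, has the highest mean at both hours (2.33 and 4.54), and the others range from -1.51 to 1.98 at 14 h and from -2.42 to 1.55 at 24 h.

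Against MBN0, 1 of the 33 genes was higher by the size rule in MBC14, 3.03% of the list against 7.29% of all genes, and 2 were lower, 6.06% against 8.38%. In MBC24 2 were higher, 6.06% against 8.38%, and 3 were lower, 9.09% against 10.9%. The higher genes at 24 h were GYG1, the glycogenin primer of glycogen (1.59 ± 0.33), and ALDOC (1.23 ± 0.15). The lower ones were the mitochondrial aspartate aminotransferase GOT2 (-2.05 ± 1.29), the mitochondrial malate dehydrogenase MDH2 (-1.28 ± 0.65) and GSK3A (-1.25 ± 1.05). At 14 h GYS1 was higher, and LDHA and G6PC3 (-1.55 ± 0.02) were lower.

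The genes whose scores most resembled those of FBP2 were found by Pearson's r over the 8 arrays, which share RNAs, so r is a description. They were COX14, an assembly factor of cytochrome oxidase (r = 0.97), the nuclear lamin LMNB1 (0.96), the calcium-binding protein S100P (0.96), the muscle sarcoglycan SGCA (0.95) and the protease inhibitor CST3 (0.94). Of the 2921 other genes, 18 had an r over 0.9. LMNB1 had means of 3.51 at 14 h and 4.31 at 24 h matched, and was above 0 against MBN0 (0.47 and 0.42). COX14 and SGCA had both signs of FBP2. COX14 had 0.54 and 1.70 matched and -0.29 and -0.45 against MBN0, and SGCA had 1.42 and 2.33 matched and -0.76 and -0.75 against MBN0. S100P and CST3 showed the low values against MBN0 (-1.51 and -1.94, and -1.60 and -1.42) with matched-hour means within 1 of 0.

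With array B as deposited, r remained high for SGCA (0.99), COX14 (0.97) and LMNB1 (0.87) and was 0.47 for S100P and 0.48 for CST3. The most opposed genes were PACSIN3, an endocytic adaptor of muscle (r = -0.96), the splicing regulator SRRM4 (-0.93) and the coatomer subunit COPA (-0.93). PACSIN3 had -0.996 at 14 h and -1.78 at 24 h matched, and 0.49 and 0.46 against MBN0.

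**Figure D5:**
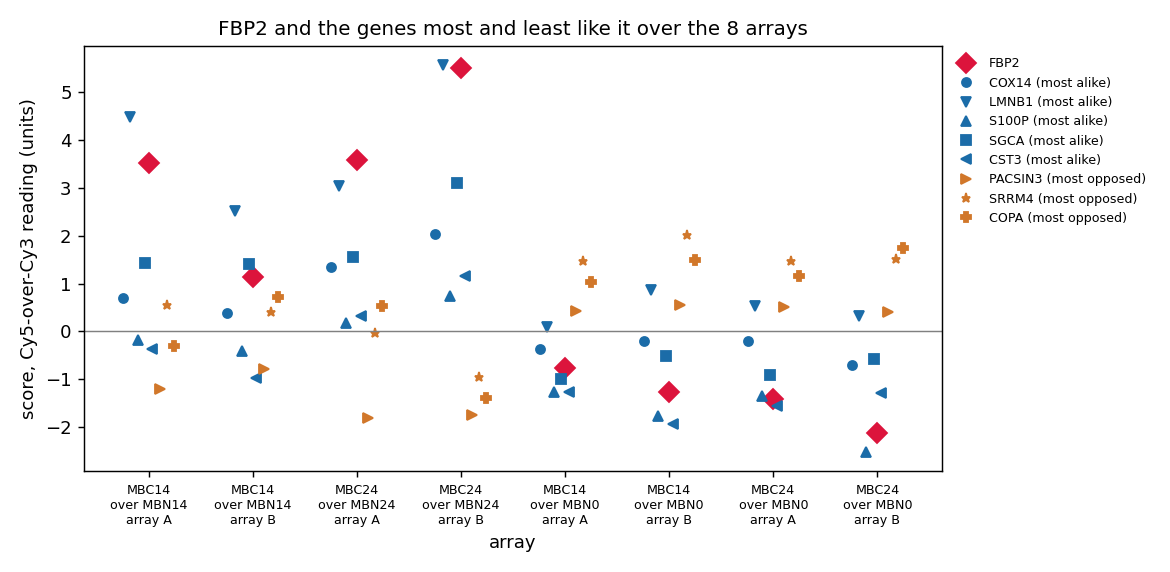
Scores in the Cy5-over-Cy3 reading (vertical axis, units) on each of the 8 arrays for FBP2 (red diamonds), the 5 genes with the highest Pearson r with it (blue) and the 3 with the lowest (orange). COX14, LMNB1 and SGCA lie above 0 with FBP2 on the 4 matched-hour arrays, and PACSIN3 lies below 0 there.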

How the data were processed

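The table holds 1 score per spot and array for 8 arrays, as deposited by the authors. Background correction, normalisation, scale and direction are not given in the sources used here, and signal over background is unknown. Precision is limited by the number of arrays. Scores were centred on the array median, and array B was turned. Gene names came from the platform annotation of 2016, in which 6610 spots list 1 gene, 106 list several and 3268 are unnamed here. Spots of a gene were averaged. The plan had assumed log ratios and was applied to the scores unchanged.

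List genes were tested with limma (version 3.58.1, R 4.3.3) on the 2 matched-hour values per gene over all 2922 genes, two-sided, with Benjamini-Hochberg adjustment. The p-values set the mean of these 2 values against a spread that limma pools with that of all 2922 genes. The spread of a gene is that between its 14 h and 24 h values, which share no RNA, so it mixes the hour with other differences between those RNAs. No label says that further cultures were grown, so the p-values hold no spread between replicate cultures of an hour. The fit was checked on simulated data. FBP2, the list and the tests were chosen with earlier results of these data known. The text names list genes that pass the size rule or the test, the phosphofructokinases, lactate dehydrogenases and aldolases, and the 5 most alike and 3 most opposed genes. PC, ACTN2, HK1 and the neighbouring genes were added after their values were seen. Other readings, centrings, scalings, single spots and single arrays were tried. The windows of 11 and 51 neighbouring spots included the spot being centred.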

Additional observations from a re-analysis of the deposited data

Results flagged for a closer look

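Among the list genes, 4 had scores on one side of 0 on both arrays at 14 h and on the other side on both arrays at 24 h in the same contrast. The share of all genes that do so was not counted, so nothing is read from this number. None of these differences was tested, and with 2 technical arrays an hour they are descriptions. G6PC3 in conditioned medium over MBN0 had 0.13 and 0.88 at 24 h and -1.56 and -1.53 at 14 h, a difference of 2.05. GPI, glucose-6-phosphate isomerase, differed by -1.14 in that contrast (-0.43 and -0.19 at 24 h, 0.69 and 0.98 at 14 h) and by 0.64 over control medium of the same hour (0.41 and 0.62 at 24 h, -0.02 and -0.23 at 14 h). TPI1, triosephosphate isomerase, differed by -0.88 over control medium of the same hour (-0.09 and -0.91 at 24 h, 0.25 and 0.52 at 14 h). PGAM2, the muscle phosphoglycerate mutase, differed by 0.49 over MBN0 (0.56 and 0.19 at 24 h, -0.02 and -0.22 at 14 h).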

How the results depend on the processing

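With array B as deposited, FBP2 turned to -0.96 in MBC24 over MBN24, 0.35 in MBC24 over MBN0, 0.25 in MBC14 over MBN0 and 1.31 in MBN24 over MBN0, and moved to -0.94 in MBN14 over MBN0, which follows from turning 1 of 2 arrays. Under the other 10 settings all 60 values (means over the arrays or spots kept) had the same sign, while array B of MBC14 over MBN14 by itself turned to -0.015 and -0.62 after centring on 11 neighbouring and on the 12 nearest spots. For single spots, single arrays and scaled arrays no sign could turn, because every spot value of a comparison already had the same sign. Leaving only array B of MBC14 over MBN0 unturned, as its labelling text would have it, was not among the settings. Centring on 11 neighbouring spots gave 1.77 in MBC24 over MBN24, -0.085 in MBC14 over MBN0, -0.76 in MBN14 over MBN0 and -3.07 in MBN24 over MBN0. Centring on the 12 nearest spots, chosen after seeing the data, gave 2.42, -0.38, -1.34 and -4.02 for the same results, and centring at steps of 8 spots, also chosen then, gave -0.55 in MBC14 over MBN0. There the first spot alone gave -1.40 and the second -0.62. The cause was not tested. Single arrays gave 1.13 to 3.52 in MBC14 over MBN14, 3.58 to 5.50 in MBC24 over MBN24, -1.26 to -0.75 in MBC14 over MBN0, -2.11 to -1.42 in MBC24 over MBN0, -4.28 to -2.39 in MBN14 over MBN0 and -7.62 to -5.00 in MBN24 over MBN0.

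In the paired fit the array letter, which stands for the dye orientation, was a block and 4 arrays were entered singly. Arrays A and B are technical, so this fit treats them as more separate than they are. With it, 0 of 33 list genes passed limma, and 6 had an unadjusted p under 0.05, against 19.7% of all genes. Over all genes this paired fit called 28 in place of 152, against 2 after centring on 11 neighbouring spots and 0 without the A arrays or with array B as deposited (303 and 91 at an unadjusted p under 0.05 in limma). The remaining settings called 128 without the B arrays, 157 after centring on 51 neighbouring spots and 160 with no centring. Scaled arrays gave 155 and the median over the spots of a gene 189. The list count was 0 in all 10 fits, single arrays included. Of the 33 list genes, 0 to 7 had an unadjusted p under 0.05 in limma, against 3.11% to 23% of all genes. Of the 5 genes most like FBP2, 2 were among the top 5 with array B as deposited, 1 after centring on 51 neighbouring spots and 0 by Euclidean distance. Signal over background is unknown, so no limit from dim spots can be given.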

Other observations

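Scores were correlated along the spot order over the whole array. Means of adjacent spot pairs correlated between 0.06 and 0.26 over the 8 arrays with the pair 2 places on, and between 0.19 and 0.37 with the pair 8 places on. Centring FBP2 on spots at steps of 8 places, chosen after seeing this, gave 4.94 in MBC24 over MBN24 and 2.67 in MBC14 over MBN14. The mouse annotation lists Fbp1 among the synonyms of Fbp2 and Fbp2 among those of Fbp1.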
